A study of Sus scrofa with 80 samples.

Results

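The thyroid gland was represented by 16 arrays, 1 from each of 16 pigs, out of 80 arrays of 5 endocrine tissues. The members were the arrays labelled thyroid gland, and they were set against 16 hypothalamus, 16 adenohypophysis (anterior pituitary), 16 backfat, 9 testis and 7 ovary arrays of the same animals. There were 4 pigs of each of the breeds Large White, Duroc, Youli and Iberian, with 2 males and 2 females in each breed except Youli, which had 3 males and 1 female. Youli is a cross with a Sino-European hybrid line. The breeds also differed in mean age, at 87, 83, 80 and 89 days, and in mean live weight, at 27.2, 23.1, 18.9 and 17.4 kg, in the order above, so that breed, age and weight cannot be told apart. The pigs came from 3 breeding companies, which are not given by breed, so that origin cannot be told apart from breed either. All animals were housed at the same time, fed the same diets and fasted for 24 h before slaughter. They were killed with an overdose of sodium thiobarbital into a vein, and no experimental treatment is described. Tissue was collected within a mean of 15 min and at most 25 min, and total RNA came from a piece of each gland, so that every value is a mean over all the cells in that piece.

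The thyroid gland consists of follicles, hollow spheres of follicular epithelium filled with the protein thyroglobulin. Follicular cells take up iodide from the blood, export thyroglobulin and hydrogen peroxide into the follicle, iodinate the protein there, and take it up again to release thyroid hormone by proteolysis. Thyrotropin of the pituitary drives all these steps through its receptor, and C cells between the follicles make calcitonin. In such bulk tissue, fewer cells of a type and less RNA per cell cannot be told apart.

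Values are log2 expression levels as normalized by the authors, and levels are compared only between groups for the same probeset. Of 23999 probesets, 10069 carried a single gene symbol, which gave 6765 genes, each read from its probeset of highest mean. Signals under log2 3 lie near the background of this normalization, so that differences from a group under 3 are uncertain in size, and "at least" marks bounds computed with such groups set to 3. Array medians were between 4.80 and 4.95 in the thyroid arrays. Breed and sex as given in the title differed from those in the label fields for 11 of 16 thyroid arrays, and the animal in the title was used. Under the titles, the Y-linked gene EIF1AY separated the 9 male thyroids, at 9.67 or more, from the 7 female ones, at 3.03 or less. A gene was called higher or lower in the thyroid gland when limma, with the animal as a block, gave an adjusted p under 0.05 against each of the 5 other groups. The gap of such a gene is the thyroid mean minus the mean of the nearest other group. Precision was limited by the number of arrays.

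The defining gene of follicular cells given for this tissue, IYD, which recovers iodide from iodotyrosines, was at log2 11.08, 11.96 and 12.71 (lowest, median and highest of 16 thyroid arrays, as in all triplets of values that follow), whereas the highest of the 64 other arrays was at 2.84. The groups did not overlap, and the gap was 9.36, or at least 464-fold when the other groups are set to the background of 3. TG, the thyroglobulin that carries the hormone, was at 13.81, 14.37 and 14.63 in the thyroid gland, while the highest array elsewhere was at 5.47, with a gap of 11.39 and at least 2630-fold. Both genes were far above every other tissue, with SE between 0.24 and 0.32 for TG and between 0.08 and 0.10 for IYD, and adjusted p of at most 3.4e-39 from limma. Among other markers of follicular cells, TSHR, SLC5A5 and DUOX2 were measured, whereas PAX8, NKX2-1, FOXE1 and SLC26A4 had no probeset with a single symbol and were not analysed here.

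Iodide uptake and the peroxide system were set apart in the same way. SLC5A5, the sodium and iodide symporter, was at 7.48, 10.04 and 12.84 in the thyroid gland and reached 6.87 in a hypothalamus, the highest array elsewhere. Its gap was 7.21 (SE 0.32 to 0.43 over the 5 comparisons, adjusted p = 4.95e-25 from limma), and it varied by more than 5 log2 among thyroid arrays. DUOX2, an oxidase that makes the hydrogen peroxide for iodination, was at 10.59, 11.35 and 11.79 in the thyroid gland, while the highest other array was at 7.31. That array was of backfat, where DUOX2 had a mean of 5.01 against 2.19 to 2.56 in the remaining groups, so that its gap of 6.27 was set by backfat (adjusted p = 5.57e-34 from limma). DUOX1, the paralogous oxidase, was at 4.45, 6.07 and 6.71 against at most 4.13 elsewhere, again in backfat, with a gap of 3.0 (adjusted p = 1.03e-23 from limma). All 16 thyroid arrays lay above all 64 others for each of these 3 genes.

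TSHR, the thyrotropin receptor, was at 5.52, 7.55 and 8.74 in the thyroid gland and never above 2.07 elsewhere. The gap was 5.44, and at least 4.43 with the other groups at the background, which is 21.5-fold (adjusted p = 8.14e-37 from limma). HHEX, a homeobox factor of thyroid development, was at 6.32, 7.10 and 8.07 against at most 4.66, with a gap of 3.76 (adjusted p = 2.75e-32 from limma). LRP2, or megalin, the endocytic receptor that binds thyroglobulin, was at 6.85, 8.16 and 8.97 against at most 2.93, with a gap of 5.51 (adjusted p = 7.62e-46 from limma). These 3 genes did not overlap with any other tissue either.

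**Figure D1:**
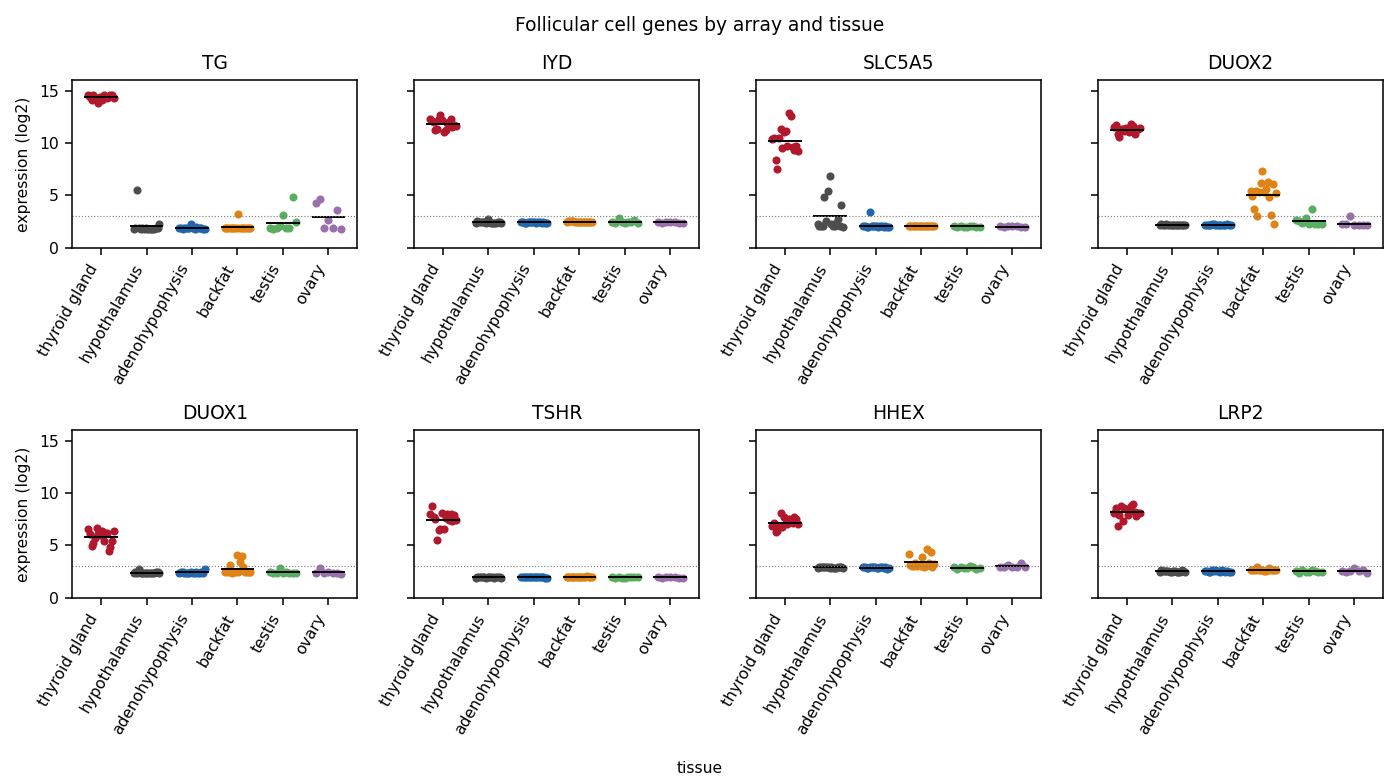
Expression (log2, vertical axis) of 8 follicular cell genes in each array (points) of the 6 groups, with the group mean (bar) and the background level of 3 (dotted line). Each thyroid array lies above each other array in all 8 panels, and DUOX2 shows signal in backfat, at a mean of 5.01.

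Genes of hormone synthesis fell into those far above the other tissues and those without signal. Of 11 measured genes of this list, 6 were higher in the thyroid gland than in each other group, which is 54.5% beside 7.51% of all genes, and none was lower. The median difference over the 11 genes was 3.38 against hypothalamus and 3.0 against backfat, beside 0.03 and -0.04 over all genes. The deiodinase DIO1, which activates thyroid hormone, stayed between 2.34 and 2.55 in all thyroid arrays, and DIO2 exceeded 3 in 1 thyroid array only, at 4.76. KCNE2 and KCNQ1, subunits of a potassium channel that supports iodide uptake, and the probeset of GNAS, the stimulatory G protein of the receptor, were below 3 in all thyroid arrays. GNAS is known to be transcribed in most tissues, and its probeset had group means below 3 in all 6 groups. Of the 4 measured transcription factors, HOXA3, FOXA1 and FOXA2 were not called, and FOXA2 ranged from 2.29 to 6.40 among thyroid arrays.

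Over all genes, 508 (7.51% of 6765) were higher and 226 (3.34%) lower in the thyroid gland than in each of the other groups. A further 939 probesets called higher and 290 called lower had no single symbol. Most of these differences were small, with a median gap of 0.59 for the higher and -0.55 for the lower genes, and 65 genes (0.961%) were higher and 17 (0.251%) lower by more than 2 log2. In 83 genes (1.23%) every thyroid array lay above every other array, and in 7 (0.103%) every one lay below. The group nearest below the thyroid gland was backfat for 155 of the 508 genes (30.5%), the adenohypophysis for 128 (25.2%), the ovary for 94, the testis for 78 and the hypothalamus for 53.

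Against single tissues, the thyroid gland was higher in 2767 genes (40.9%) and lower in 1988 (29.4%) than the hypothalamus, and higher in 2304 (34.1%) and lower in 1894 (28.0%) than the adenohypophysis. It was higher than the testis in 1999 genes (29.5%) and lower in 2234 (33.0%). Against backfat, 2220 genes (32.8%) were higher and 2521 (37.3%) lower, and against the ovary 1946 (28.8%) and 1931 (28.5%). The balance of the latter pair depended on the scaling, since the thyroid array medians were on average higher than those of backfat by 0.14 and differed from those of the ovary by -0.11, the ovary being higher. With each array centred on its median, 1804 genes were higher and 3191 lower than in backfat, and 2870 higher and 1658 lower than in the ovary. The mean absolute difference over all genes was 1.04 from the hypothalamus, 0.849 from the testis, 0.787 from backfat, 0.769 from the adenohypophysis and 0.761 from the ovary, so that the hypothalamus stood farthest from the thyroid gland.

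The 25 genes with the largest gaps included, beside those above, genes of secretion, transport and cell junctions. PGLYRP1, a peptidoglycan recognition protein of innate immunity, was at 7.93, 8.80 and 9.44 in the thyroid gland against at most 3.99 elsewhere, with a gap of 5.86. SLC30A3, a zinc transporter, was at 8.32, 9.37 and 11.45 against at most 7.90, with a gap of 5.17, and GJB1, the gap junction protein connexin 32, had a gap of 5.16. S100G, a calcium-binding protein of epithelia, ranged from 5.19 to 9.21 against at most 5.00, with a gap of 4.62. Among junction proteins, MARVELD3 of tight junctions had a gap of 4.84 and CGNL1, which is related to cingulin, one of 4.18. The membrane mucins MUC15 and MUC1 had gaps of 4.72 and 4.11. MECOM, a zinc finger transcription factor, was at 10.30, 11.10 and 11.49 against at most 9.32, with a gap of 3.78. All 25 genes had gaps from 3.56 to 11.39, and 17 of them did not overlap with any other array. Since they were chosen by the gap, freedom from overlap follows in part from the choice. Over all genes, 83 (1.23%) lay above every other array. The next gene in this order, AGER, was at a gap of 3.27.

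**Figure D2:**
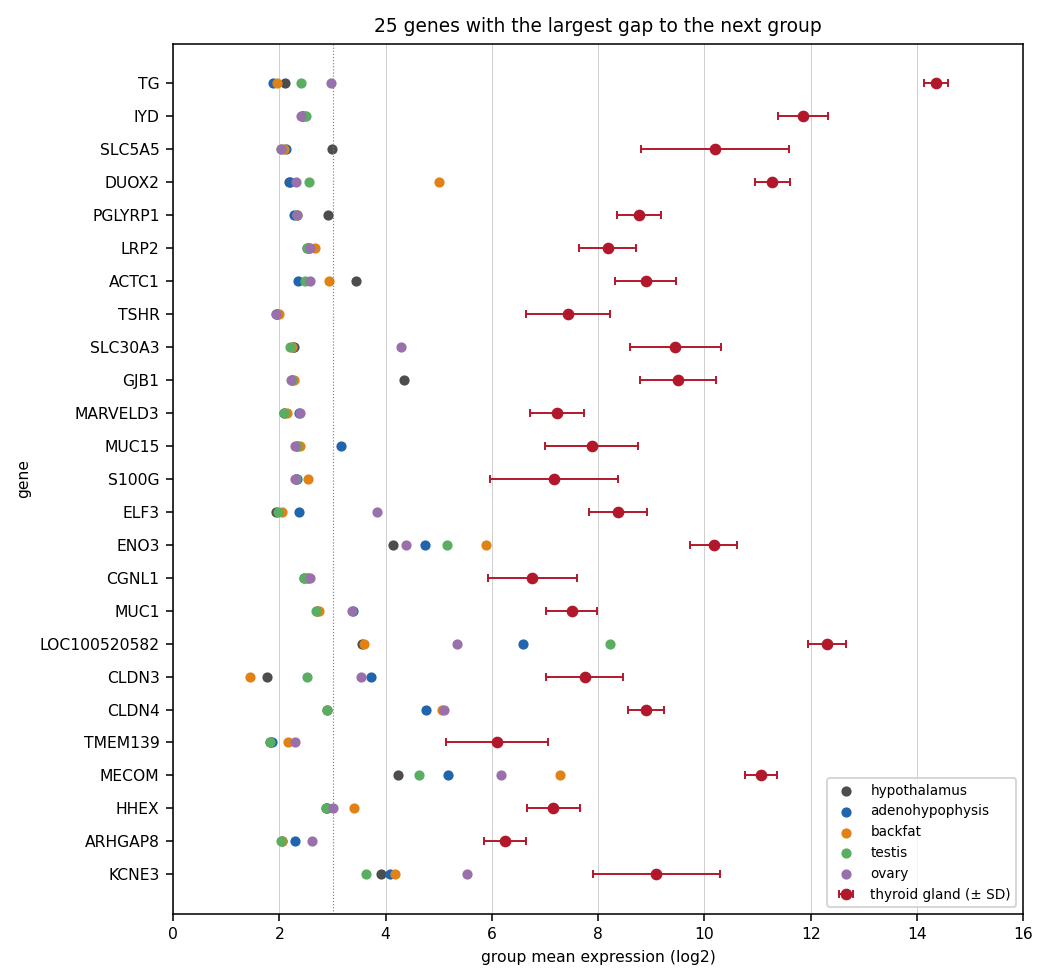
Group means (log2, horizontal axis) of the 25 genes with the largest gap between the thyroid gland (red, with SD over 16 arrays) and the nearest other group (other colours), in order of the gap. TG stands at the top with a gap of 11.39 and KCNE3 at the bottom with 3.56, and the dotted line marks the background level of 3.

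In 3 of these 25 genes, ENO3, ACTC1 and CLDN4, at least 1 array of another tissue lay above all thyroid arrays. ENO3, the muscle form of enolase, was at 9.41, 10.19 and 10.92 in the thyroid gland and at 14.72 in the backfat of the Youli male YLM19. ACTC1, the actin of heart muscle, was at 7.78, 8.81 and 9.79 in the thyroid gland and at 10.37 in that same array. The mean over the 24 measured genes of skeletal muscle was 12.78 in this backfat array, whereas it lay between 3.11 and 3.80 in all thyroid arrays. Muscle markers were near the background in the thyroid gland, where CKM had a median of 2.24 and exceeded 3 in 1 array only, MYH2 was at most 3.06 and TNNT3 at most 2.12. Of the 24 muscle genes, ENO3 alone was called higher than in each other group, which is 4.17% beside 7.51% of all genes. With the backfat of YLM19 and the ovary of IBF25 left out, a choice made after seeing the data, the gap of ENO3 was 4.87 in place of 4.28.

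Epithelial junctions and keratins gave the largest number of higher genes among the lists. Of 30 measured genes, 12 (40.0%) were higher in the thyroid gland than in each other group and none was lower, beside 7.51% and 3.34% of all genes. The mean over the list was 8.04, 8.32 and 8.55 (lowest, median and highest) in the thyroid gland, at most 6.84 in the adenohypophysis, 5.34 in backfat, 4.93 in the testis and 4.53 in the hypothalamus. Ovaries ranged from 4.78 to 8.90, and the highest of these, of the Iberian female IBF25, lay above all thyroid arrays. ELF3, an epithelial transcription factor, was at 7.04, 8.55 and 8.93 against at most 7.45, with a gap of 4.55, and 5.16 without the pair of arrays named above. CLDN4 and CLDN3, claudins of tight junctions, were at 8.29, 8.99 and 9.42 and at 6.33, 7.82 and 8.78, with gaps of 3.81 and 4.03 (adjusted p = 4.67e-07 and 1.46e-12 from limma). Both overlapped with other groups, since CLDN4 reached 9.76 in a backfat and 9.71 in an ovary, and CLDN3 reached 7.65 in an ovary. The desmosome protein DSP had a gap of 2.43, the tight junction protein OCLN one of 2.36 and the keratin KRT19 one of 2.16. The protease ST14 and its inhibitors SPINT1 and SPINT2 were higher as well, by 0.75, 1.81 and 0.78. The median difference over the 30 genes was 4.30 against hypothalamus, 4.27 against backfat, 4.08 against testis and 2.19 against ovary, but 0.84 against the adenohypophysis, beside 0.03, -0.04, 0.00, 0.02 and 0.00 over all genes.

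Genes that fold and export secreted proteins were higher in part. Of 24 measured genes of folding and export in the endoplasmic reticulum, 8 (33.3%) were higher than in each other group and none was lower. The shares over all genes were 7.51% and 3.34%. PDIA4, a disulfide isomerase, was at 10.20, 11.32 and 11.83 against at most 10.50, with a gap of 1.18 (adjusted p = 8.92e-10 from limma). SSR3, a subunit of the translocon complex, was at 11.11, 11.32 and 11.61 against at most 10.94 and did not overlap with any other array, although its gap was only 0.62. Smaller gaps were found for the chaperone HSP90B1 (0.58), the isomerase PDIA3 (0.40), the retention protein ERP44 (0.39), the co-chaperone DNAJC3 (0.35), the transcription factor XBP1 (0.32) and the lectin chaperone CANX (0.21). Against the adenohypophysis, 10 of the 24 were higher and 8 lower with a median difference of 0.10, beside 34.1% and 28.0% of all genes. Against the hypothalamus 22 were higher and none lower with a median of 1.70, beside 40.9% and 29.4% of all genes.

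Uptake and digestion of thyroglobulin showed fewer differences. Of 16 genes, LRP2 and the cathepsins CTSV and CTSH, lysosomal proteases, were higher than in each other group (18.8%, beside 7.51% of all genes). The latter pair were higher by 0.84 and 0.47. The mean over the list was 9.89 to 10.26 in the thyroid gland and 9.40 to 10.38 in backfat, so that these groups overlapped. No gene of 27 selenoproteins and peroxide handling enzymes was higher and 1 was lower, beside 7.51% and 3.34% of all genes. This was GCLM, which takes part in glutathione synthesis, with a gap of -1.02. Its thyroid mean of 2.90 lay under the background of 3, so that the gap is uncertain in size. Of 14 genes of receptor signalling through cyclic AMP and calcium, 1 was higher (7.14%) and 1 lower, beside 7.51% and 3.34% of all genes. These were RAP1B, a small GTPase, higher by 0.21, and RGS2, a regulator of G protein signalling, lower by a gap of -1.21. The second probeset of RAP1B, which had signal, was not called. Of 20 genes of ion transport, KCNE3, a potassium channel subunit, had a gap of 3.56 and FXYD2, a subunit of the sodium pump, one of 1.57.

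**Figure D3:**
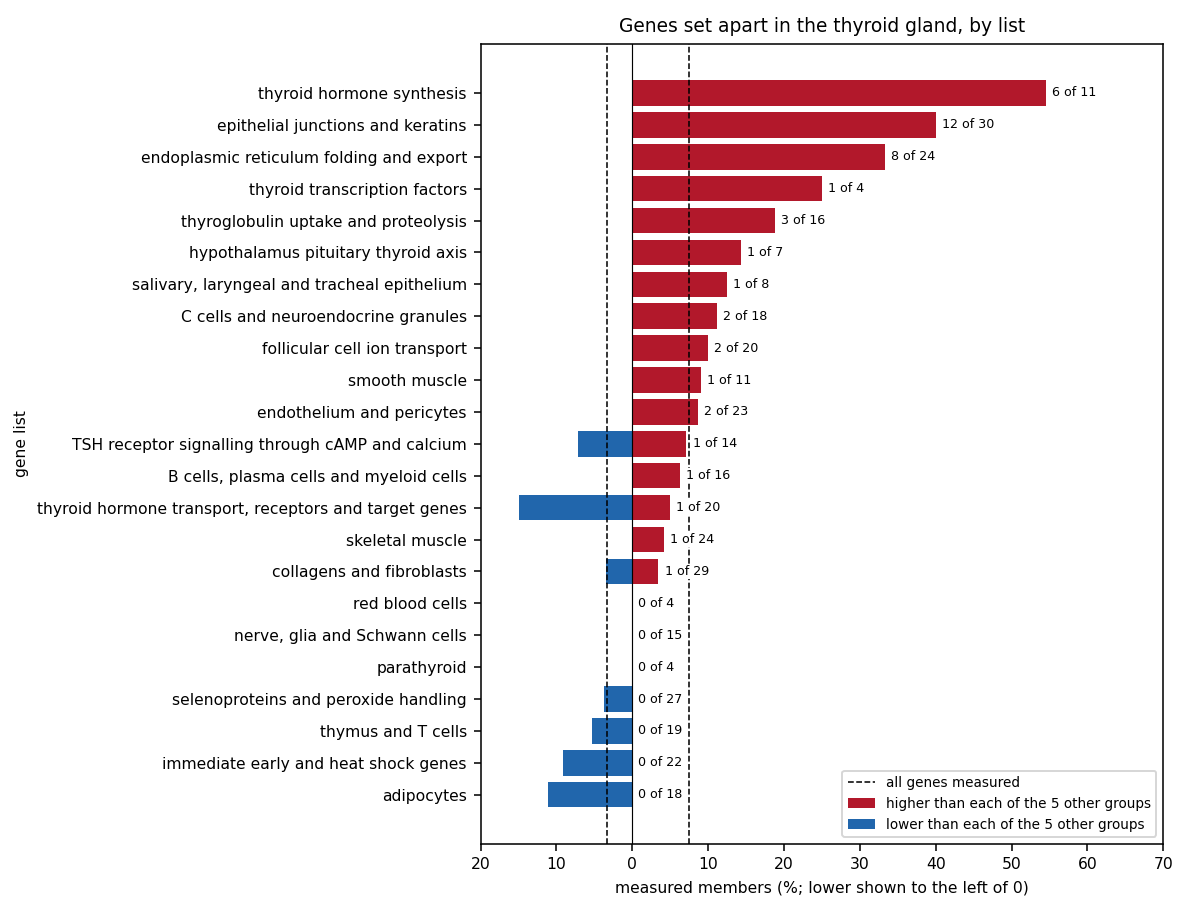
Share of the measured genes of each list (horizontal axis, percent) that were higher (right, red, with the number) or lower (left, blue) in the thyroid gland than in each of the 5 other groups. The dashed lines mark the shares over all genes, 7.51% and 3.34%, and hormone synthesis (6 of 11), epithelial junctions and keratins (12 of 30) and endoplasmic reticulum folding and export (8 of 24) lie farthest to the right.

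Among the 15 genes with the largest gaps below the other groups were several enzymes. ENPP2, or autotaxin, which makes lysophosphatidic acid, was at 2.57, 2.82 and 5.47 in the thyroid gland and at 5.09 or more elsewhere, with a gap of -4.50, whose size is uncertain since the thyroid median lay under the background of 3. ME1, malic enzyme, which supplies reducing power to lipid synthesis and is a known target gene of thyroid hormone in liver, was at 2.71, 3.67 and 6.31 against 6.05 or more, with a gap of -4.12 (adjusted p = 6.67e-15 from limma). Single thyroid arrays of both genes reached into the range of other tissues. The highest thyroid arrays were YLM20 and DUM12 for both genes, and these were also among the 3 highest for ADIPOQ of adipocytes, whose part in the values was not tested. SCD, the stearoyl-CoA desaturase, was at 2.44, 5.44 and 7.21 with a gap of -2.19 (adjusted p = 0.00248 from limma), and CYP27A1, the sterol 27-hydroxylase, had one of -2.13. CDO1, which degrades cysteine, had a gap of -3.86.

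Other genes were lower without overlap. PKIA, an inhibitor of the cyclic AMP-dependent protein kinase, was at 3.19, 4.16 and 5.03 in the thyroid gland and at 5.84 or more in all 64 other arrays, with a gap of -3.10 (adjusted p = 3.81e-16 from limma). NDN, or necdin, a growth suppressor, was at 4.24, 5.12 and 6.92 against 7.78 or more, with a gap of -2.74, and ALDH2, an aldehyde dehydrogenase, was at 4.50, 5.30 and 6.63 against 7.73 or more, with a gap of -2.63. The RNA-binding protein KHDRBS3 and PRPS1, which makes the precursor of nucleotides, also did not overlap, with gaps of -2.15 and -2.08. The second probeset of PRPS1, which had signal, was not called, with a gap of 0.00. The 15 genes with the largest gaps below ranged from -2.08 to -4.50, and 5 of them were free of overlap. These too were chosen by the gap, and over all genes 7 (0.103%) lay below every other array.

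Of 20 measured genes of thyroid hormone transport and action, 1 (5.00%) was higher and 3 (15.0%) lower than in each other group, beside 7.51% and 3.34% of all genes. The coactivator NCOA2 was at 9.70, 9.93 and 10.32 against at most 9.51, with a gap of 0.88. ME1, the amino acid transporter subunit SLC3A2 (gap -1.04) and the retinoid receptor RXRG (gap -0.85) were lower. RXRG had a thyroid mean of 2.31, under the background of 3, so that its gap is uncertain in size. It lost the call under 2 alternatives, with gaps from -0.83 to -0.31.

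Of 7 measured genes of the hypothalamus, pituitary and thyroid axis, TSHR alone was higher in the thyroid gland than in each other group (14.3%, beside 7.51% of all genes). TSHB, the specific subunit of thyrotropin, had a mean of 12.60 in the adenohypophysis and TRH, the hypothalamic releasing hormone, one of 7.19 in the hypothalamus. In the thyroid gland TRH was between 2.38 and 2.55, and TSHB had a median of 1.96 and a highest value of 4.71. Whether TSHB in the pituitary of an animal went with the 11 genes of hormone synthesis in its thyroid gland was examined over the 16 animals, in which TSHB was at 10.19, 12.85 and 13.67. Of the 11 genes, 5 had thyroid arrays under the background of 3 (DIO1, KCNE2, KCNQ1 and GNAS in all arrays and DIO2 in all but 1). A relation for these 5 would rest on values near the background. Of them DIO2, at 4.76 in LWM02 alone, had an r of -0.718 (permutation p = 0.0384, adjusted p = 0.423 over 11 genes). Without LWM02 and YLM20, the r of DIO2 was -0.18. Among the 6 genes with signal in all arrays, Pearson's r ranged from -0.439 for DUOX2 to 0.0913 for TG, and by permutation with 100000 resamples 0 of 6 had an unadjusted p under 0.05. DUOX2 had a permutation p of 0.0879 (adjusted p = 0.483 over 11 genes) and a Spearman's rho of -0.312 (permutation p = 0.240, adjusted p = 0.804). Without LWM02 and YLM20, the animals farthest from the median, its r was -0.138, and with breed means removed it was -0.437 (permutation p = 0.103 within breeds).

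Genes of C cells varied strongly between animals. CALCB, a gene of the calcitonin family, was at 3.0, 7.93 and 10.76 in the thyroid gland, at a mean of 6.45 in the hypothalamus and at 2.40 in backfat, and it was not called against the hypothalamus (gap 0.69, adjusted p = 0.175 from limma). CRSP-2, a calcitonin receptor-stimulating peptide of the same family, ranged from 1.89 to 9.85, and SST, or somatostatin, which C cells also contain, from 2.43 to 8.67. Both had higher medians in the hypothalamus, at 5.95 for CRSP-2 and 9.41 for SST, beside 3.81 and 6.83 in the thyroid gland. The 4 Large White thyroids were at most at 2.29 for CRSP-2, and the Youli female YLF21 was highest for both CRSP-2 and CALCB, but neither gene differed by breed (adjusted p = 0.218 and 0.703 from limma). CALCA, the calcitonin gene itself, had no probeset with a single symbol, and whether the probes of CALCB also bind its transcript was not examined. Of genes for processing peptides, the convertase PCSK2 was at 2.75, 7.36 and 9.20 with a gap of 1.13 (adjusted p = 0.00237 from limma), and PAM, which amidates peptide hormones, was at 10.90, 11.46 and 11.69 with a gap of 0.79. These were the only 2 of 18 measured genes of C cells and neuroendocrine granules (11.1%, beside 7.51% of all genes) to be higher than in each other group. In the same list 13 were higher than in backfat and none lower (32.8% and 37.3% of all genes), and 13 were lower than in the adenohypophysis (28.0% of all genes). YLM20, which held pituitary transcripts (below), was the lowest array for SST and PCSK2 and the second lowest for CALCB, at 3.62. The granule protein SCG5 was between 11.22 and 12.58 in all thyroid arrays, whereas the granule protein CHGB ranged from 2.59 to 10.64.

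Markers of neighbouring tissues were mostly near the background. PTH, the hormone of the parathyroid glands, was between 2.31 and 2.50 in all 16 thyroid arrays. None of the 4 measured genes of that list was called higher or lower, beside 7.51% and 3.34% of all genes. The parathyroid markers GCM2 and CASR and the thymus marker PTCRA had no probeset with a single symbol and were not analysed here. Of thymus markers, CD1E was at most 2.54 and RAG1 at most 3.30, while CD3E exceeded 5 in 1 array and CD8A in 4. Of the 19 genes of thymus and T cells none was higher than in each other group and 1 was lower, beside 7.51% and 3.34% of all genes. This was SATB1, a chromatin organizer, with a gap of -1.0. The cartilage genes COL2A1 and ACAN were at most 2.11 and 2.44. LTF, or lactoferrin, of glandular secretions, was 1 of 8 genes of salivary and airway epithelium to be higher (12.5%, beside 7.51% of all genes). It was at 6.45, 7.27 and 8.47 with a gap of 3.21.

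Genes of vessels and connective tissue were mostly lower than in backfat and higher than in hypothalamus and adenohypophysis. Of 23 genes of endothelium and pericytes, 18 were higher than in the hypothalamus and 21 than in the adenohypophysis, whereas 14 were lower than in backfat, beside 40.9%, 34.1% and 37.3% of all genes. ANGPT2, an angiopoietin of vessel remodelling, was at 7.67, 8.50 and 10.08 with a gap of 2.26 (adjusted p = 3.05e-13 from limma), and its receptor TEK had a gap of 0.38. Neither of the 2 other probesets of TEK was called. Of 29 genes of collagens and fibroblasts, 20 were higher than in the hypothalamus and 20 than in the adenohypophysis, while 25 were lower than in backfat and 21 lower than in the ovary, the latter beside 28.5% of all genes. The metalloproteinase inhibitors went in opposite directions, with TIMP3 at a gap of 0.62 and TIMP2 at -1.74. Of 11 smooth muscle genes, the enteric actin ACTG2 alone was higher than in each other group (9.09%, beside 7.51% of all genes), by 0.79. The second probeset of ACTG2, which had signal, was not called, with a gap of 0.00. Of 18 adipocyte genes, 17 were lower than in backfat, beside 37.3% of all genes, with a median difference of -5.61. ME1 and SCD were lower than in each group, beside 3.34% of all genes. Of 15 genes of nerve and glia, 13 were lower than in the hypothalamus, beside 29.4% of all genes. None was called higher or lower against each group, beside 7.51% and 3.34% of all genes.

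Of 16 genes of B cells, plasma cells and myeloid cells, 1 (6.25%) was higher than in each other group, beside 7.51% of all genes. This was KIT, a receptor tyrosine kinase of mast cells, among others, at 6.71, 8.25 and 9.07, with a gap of 1.57. None of 4 genes of red blood cells was called higher or lower, beside 7.51% and 3.34% of all genes. Of 22 immediate early and heat shock genes none was higher and 2 were lower, beside 7.51% and 3.34% of all genes. The lower genes were MYC, with a gap of -0.99, and HSPH1, a heat shock protein, with one of -0.73.

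Some thyroid arrays held transcripts of other tissues. PRL, or prolactin, was at 13.74 in the thyroid gland of the Youli male YLM20, 11.28 in that of YLM19 and 7.09 in that of the Duroc female DUF13, and between 1.85 and 4.28 in the other 13. GH1, growth hormone, and CGA, the common subunit of the pituitary glycoprotein hormones, were at 14.70 and 12.74 in YLM20, at 11.04 and 10.02 in YLM19 and at 6.96 and 6.36 in DUF13. GH1 was also above 5 in LWM02 and DUM12, at 5.47 and 5.18. In YLM20 the pituitary hormones POMC and LHB reached 9.89 and 9.25 as well, while FSHB stayed at 2.21. The mean over 7 pituitary hormone genes, a list made after these values were seen, had a median of 2.31 over thyroid arrays, and of 13.99 in the adenohypophysis. ADIPOQ, or adiponectin of adipocytes, ranged from 1.93 in LWM04 to 10.89 in DUM12, with 12 of 16 arrays above 5, beside a median of 4.89 for the mean over all 18 adipocyte genes. LEP, leptin, was at most 2.48 in all thyroid arrays, and FABP4, the fatty acid-binding protein, was between 9.75 and 13.08.

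PRL, EIF1AY, GH1, CGA, CRSP-2 and ADIPOQ were the genes of largest spread among thyroid arrays, with SD from 2.45 to 3.67 beside a median SD of 0.27 over all genes. They were followed by LOC396781, by PTGFR, a prostaglandin receptor, which was at 2.80 in LWM02 and 2.21 in YLM20 and at 6.93 or more in the other 14, by POSTN, periostin of connective tissue, and by MYOC, myocilin. When the 3 arrays with PRL over 5 were left out, a choice made after seeing the data, 474 genes were higher than in each other group, 466 of these among the 508, and 217 were lower. The part of these transcripts in the differences by breed and sex was not tested beyond the counts given without the arrays.

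**Figure D4:**
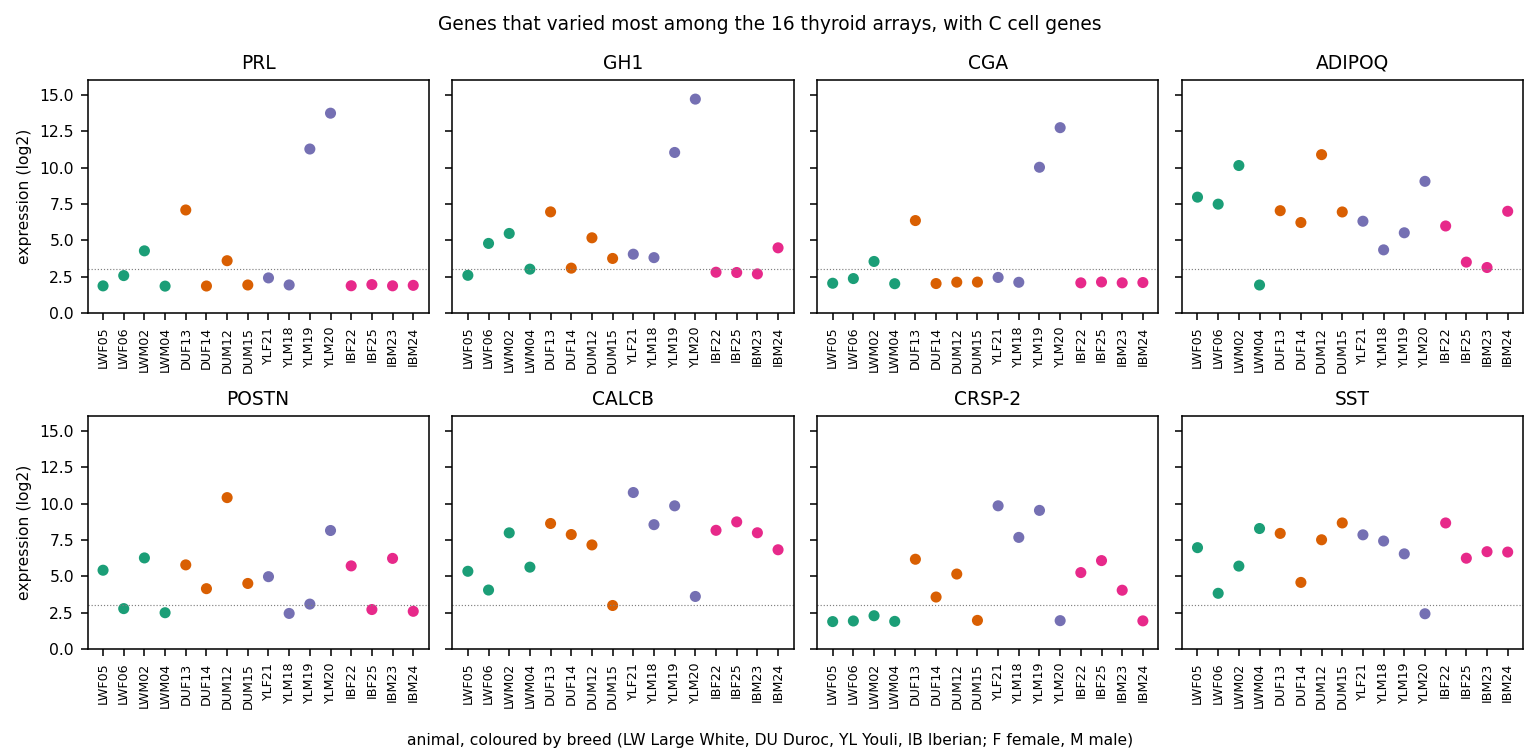
Expression (log2, vertical axis) of 8 genes in each of the 16 thyroid arrays (points, coloured by breed), with the background level of 3 (dotted). PRL, GH1 and CGA are high in DUF13, YLM19 and YLM20, ADIPOQ and POSTN are highest in DUM12, and CALCB, CRSP-2 and SST of C cells vary over most of the range.

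Within the thyroid gland, 47 genes (0.695%) differed by breed with sex as covariate, and 1180 did at an unadjusted p under 0.05. SNTB1, a syntrophin of the membrane skeleton, was highest in Iberian pigs, at 10.20 ± 0.25, with means of 8.70 to 9.39 in the other breeds (SD, n = 4, adjusted p = 0.00416 from limma). EMB, or embigin, a cell adhesion protein, was lowest in Duroc pigs, at 6.02 ± 0.38 against 7.50 to 7.86 (SD, n = 4, adjusted p = 0.00662 from limma). ADGRA3, an adhesion G protein-coupled receptor, was at 7.63 in Large White, 7.26 in Iberian, 6.85 in Youli and 6.49 in Duroc pigs (adjusted p = 0.00684 from limma). In each of these 3 genes, the breed named first or last lay apart from the mean of the next breed by more than the SD within either. ADD3, an adducin, differed less, at 11.17 in Large White and 11.55 to 11.82 in the others (adjusted p = 0.0112 from limma). SLC45A2, a transporter of pigment cells, differed only within the background, with means from 1.75 to 2.69.

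By limma, 0 of the 11 genes of hormone synthesis passed the test by breed, beside 47 of all 6765 genes (0.695%). At an unadjusted p under 0.05 from limma 1 did, SLC5A5, beside 1180 of all genes. So few genes cannot show whether the list differed less by breed than all genes. TG had means from 14.17 in Iberian to 14.47 in Youli pigs (adjusted p = 0.693 from limma) and IYD from 11.57 in Large White to 12.14 in Iberian pigs (adjusted p = 0.787 from limma). For SLC5A5 the means ran from 9.17 in Duroc to 11.55 in Large White pigs, with an SD of 1.48 and 1.46 in these breeds (adjusted p = 0.320 from limma). Of the 508 genes higher in the thyroid gland than in each other group, 10 also differed by breed. Of the 226 lower genes 1 did, beside 47 of all 6765 genes (0.695%). Among the 10 were KCNE3, KIT, KRT19, ACTC1 and LOC100738720. KCNE3 was at 10.33 ± 0.90 in Large White and 7.46 ± 0.46 in Duroc pigs (SD, n = 4, adjusted p = 0.0112 from limma), with Youli at 9.67 and Iberian at 8.92. KIT, which is also known for its part in coat colour, had means of 6.99 for Iberian and 7.55 for Duroc pigs, below those of 8.70 and 8.73 for Large White and Youli pigs (adjusted p = 0.0112 from limma). ACTC1 had a mean of 9.65 in Youli and 8.49 to 8.78 in the other breeds (adjusted p = 0.0460 from limma), but missed the threshold when any of 12 animals was left out, at adjusted p of up to 0.119, and under 4 other alternatives, at up to 0.423. The number of genes by breed depended on single animals. Without the 3 arrays with pituitary transcripts it was 6, and by limma the adjusted p was then 0.121 for KCNE3, 0.0788 for KIT, 0.112 for EMB, 0.0894 for ADGRA3, 0.0788 for ADD3 and 0.18 for LOC100738720. Leaving out YLF21 gave 15 genes, LWF06 gave 145 and IBM24 gave 116.

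**Figure D5:**
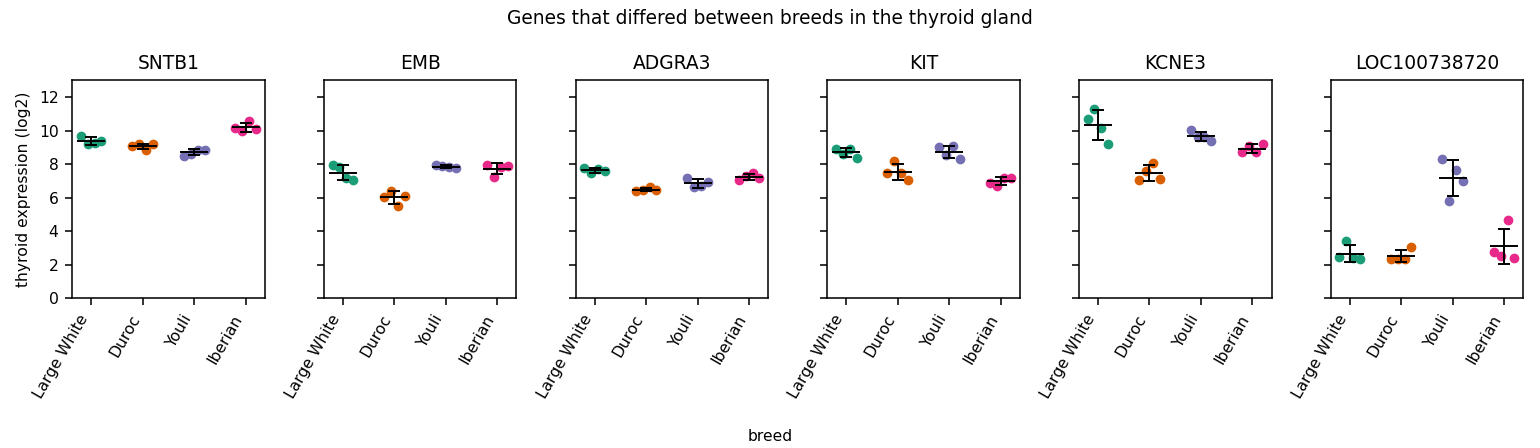
Thyroid expression (log2, vertical axis) of 6 genes by breed, with each animal as a point and the mean ± SD over 4 animals as a bar. SNTB1 is highest in Iberian pigs, EMB and ADGRA3 are lowest in Duroc pigs, and LOC100738720 shows signal in all 4 Youli pigs, at a mean of 7.18.

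By sex, 5 genes (0.0739%) differed in the thyroid gland, 3 higher in males and 2 in females, with 344 at an unadjusted p under 0.05. The male minus female difference of EIF1AY was 7.11 with an SE of 0.06 (adjusted p = 1.8e-16 from limma), and that of LOC396706 was 2.96 with an SE of 0.15 (adjusted p = 2.74e-07 from limma). KDM6A, an X-linked histone demethylase, had means of 6.97 ± 0.22 (SD) over 9 males and 7.99 ± 0.19 over 7 females, which differed by -1.0 with an SE of 0.11 (limma, adjusted p = 0.00168). TXLNG, also X-linked, had means of 7.15 and 7.71, with a fitted difference of -0.57 and an SE of 0.05 (limma, adjusted p = 2.23e-04). For ZFX the fitted difference was 1.58 with an SE of 0.23 (limma, adjusted p = 0.0193), higher in males, and whether its probes also bind the Y-linked copy was not examined. ZFX missed the threshold when any of 7 animals was left out, at adjusted p of up to 0.0753, and without the 3 arrays with pituitary transcripts, at 0.274.

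Whether breed or sex differences of the thyroid gland were shared by hypothalamus, adenohypophysis and backfat of the same animals was tested on the difference of the thyroid gland from their mean. This difference varied by breed in 5 genes (0.0739%, 903 at an unadjusted p under 0.05 from limma) and by sex in 4 (0.0591%, 372 unadjusted). Of the former, C15H4orf47 and LOC100738720 also differed by breed within the thyroid gland. C15H4orf47 was at 5.01 ± 0.19 in Large White thyroids, 4.42 in Iberian, 3.70 in Duroc and 3.64 in Youli thyroids (SD, n = 4, adjusted p = 0.00442 from limma), while the mean of the other tissues stayed between 3.63 and 3.84 in all breeds.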

How the data were processed

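Expression was measured with Affymetrix porcine arrays in 80 tissue samples. The deposited expression values are log2 signals, which the authors obtained from a joint GCRMA normalization of all tissues. GCOS is named in the submitters' processing notes. Of 24123 probesets, 124 controls were left out. Of the rest, 10069 carried 1 symbol in the annotation of the array, 198 several and 13732 none, and 9961 of those with 1 symbol matched a gene of the reference annotation. The 23999 probesets were fitted in limma 3.58.1 (R 4.3.3) with 6 groups and the animal as a fixed block, two-sided, with Benjamini-Hochberg adjustment at 0.05 over all probesets. Breed and sex were fitted on the 16 thyroid arrays, each with the other as covariate, breed by the moderated F test.

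The title gave animal, breed and sex. Deviations of the thyroid arrays from their group mean correlated with those of the same pig elsewhere, with a mean r of 0.311 in hypothalamus, 0.352 in adenohypophysis and 0.256 in backfat, and all 48 pairs above 0.1, beside about -0.02 for other animals, so that the pairing was kept. A gene was read from its probeset of highest mean. Among 25 named genes called against all groups that have several, all probesets gave the same call in 10, at least 1 was not called in 15 and none gave the opposite call.

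The members, the 23 gene lists and the rule for naming genes were chosen with earlier results of these data known. Named were the 25 genes with the largest gap above and the 15 below, the members of the lists of hormone synthesis, transcription factors, axis, C cells and parathyroid, up to 4 called genes of largest gap in each other list, the 10 of largest SD and the 8 of smallest p by breed and by sex. DSP, OCLN, KRT19, SPINT1, SPINT2, ST14, ERP44, DNAJC3, XBP1, CANX, AGER, FABP4 and the cell type markers were named beyond this rule, as were the pituitary hormones, whose list was made after the values were seen. The fits were also run on simulated data without tissue differences, which kept a part of each animal's mean deviation in the real data. The fit against all groups recovered 22, 46, 49 and 50 of 50 probesets shifted by 0.5, 1, 2 and 4 log2. It called 0 unshifted probesets. The fit for breed recovered 13, 27, 47 and 50 of 50 and called 20 unshifted ones. These 20 may hold real breed differences kept with the animals, so that they are not a count of false calls. Since the other groups did not differ in the simulation, its rates need not hold for the real data. Sequences are not shown here.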

Additional observations from a re-analysis of the deposited data

Results flagged for a closer look

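In 4 of 19 groups of 4 to 9 arrays examined, 1 array lay far from the others, where about 1 in 20 groups is marked by chance. LOC100738720 was at log2 3.44 in the thyroid gland of the Large White female LWF06, against 2.37 to 2.48 in the other Large White pigs, and at 4.68 in that of the Iberian male IBM23, against 2.41 to 2.77 in the other Iberian pigs. TG was at 4.81 in the testis of the Youli male YLM19, against 1.83 to 3.08 in the other testes. DUOX2 was at 3.69 in the testis of the Large White male LWM04, against 2.23 to 2.80 in the others.

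The difference of the thyroid gland from the mean of hypothalamus, adenohypophysis and backfat varied by breed in 5 genes by limma. LOC100738720 was at 7.18 in Youli thyroids and at 2.40 on average elsewhere in these pigs (adjusted p = 0.0219 from limma). For C15H4orf47 the difference was 1.28 in Large White and 0.01 in Youli pigs (adjusted p = 0.0355 from limma). LHFP, a membrane protein, was at 8.03 in Duroc and 5.68 in Iberian thyroids, while the mean of the other tissues was 6.13 and 5.86 (adjusted p = 0.0402 from limma). ADAMDEC1, a metalloprotease of macrophages, was near the background in the thyroid gland of all breeds, at 2.57 to 2.61, and at 8.45 in Large White backfat against 3.42 to 4.10 in that of other breeds (adjusted p = 0.0216 from limma). For TGFB1, the growth factor, the difference was 1.58 in Large White and 0.78 in Duroc pigs (adjusted p = 0.0412 from limma).

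By sex, this difference varied in 4 genes by limma. TGFB1 was at 6.57 in female and 6.05 in male thyroids, and at 5.03 and 5.19 in the mean of the other tissues (adjusted p = 0.0145 from limma). The other three genes were near the background in the thyroid gland of both sexes and differed in the adenohypophysis. FSHB, the specific subunit of follitropin, was there at 14.23 in females and 10.16 in males (adjusted p = 0.0203 from limma), HYAL3, a hyaluronidase, at 7.26 and 2.63 (adjusted p = 0.0105 from limma), and C1QTNF12, a secreted adipokine, at 6.47 and 4.24 (adjusted p = 0.0335 from limma).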

How the results depend on the processing

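With no replicate block in place of the animal as a block, 481 genes were higher and 211 lower than in each other group, 473 and 206 of them shared with the 508 and 226. Over all alternatives the numbers higher ran from 432, with each comparison fitted on its own groups, to 643, with the gonads as 1 group, and those lower from 211 to 287. Leaving out each animal gave 483 to 510 and 211 to 237, and by more than 2 log2 62 to 69 and 15 to 18. The number of genes by breed was 24 with values under 3 set to 3 and 6 without the 3 arrays with pituitary transcripts, and ran from 15 to 145 with animals left out. Genes whose thyroid difference varied by breed numbered 3 after quantile normalization, 8 with dim probesets left out and 1 without those 3 arrays, and ran from 0 (without DUF13 and without LWF05, with 864 and 829 at an unadjusted p under 0.05 by limma) to 8 with animals left out. Those varying by sex numbered 1 without the 3 arrays, and ran from 0 (without DUM15 and without IBF22, with 375 and 413 unadjusted by limma) to 4. The causes were not tested. Of 68 named genes called against all groups, 10 lost the call under at least 1 alternative (ACTG2, CTSH, FXYD2, LOC100738720, MYC, PCSK2, RAP1B, RXRG, TEK and TIMP3), 3 with an animal left out (CTSH, RAP1B and TIMP3), and none reversed. Of 11 named genes by breed, 9 lost the call under at least 1 alternative (ACTC1, ADD3, ADGRA3, EMB, KCNE3, KIT, LOC100152306, LOC100738720 and SLC45A2), each of them without the 3 arrays. Signals under log2 3 limit what can be said of genes without signal.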

Other observations

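Pituitary transcripts were also present in single arrays of the other tissues, among them the hypothalamus of some of the same animals. The highest PRL values in testis, backfat and ovary were 8.16, 7.58 and 4.68, beside medians of 1.93, 1.93 and 1.91. PRL was at 7.35 in the hypothalamus of DUF13 and 7.09 in its thyroid gland, and at 11.34 and 11.28 in those of YLM19. In YLM20 it was at 5.51 in the hypothalamus and 13.74 in the thyroid gland, while in IBM24 it was at 7.74 and 1.91. POMC, which hypothalamic neurons also make, reached 10.42 in the hypothalamus of DUF13 and stayed at 2.37 in its thyroid gland. ASIP, the agouti protein, was near the background in 14 thyroid arrays, at 10.06 in that of the Iberian male IBM23 and at 7.53 in that of the Iberian female IBF25. It was named after its values were seen.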
